A study of Homo sapiens with 6 samples.

Results

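The accessibility of 10 genes that p53 activates was examined in RKO cells, a colon cancer line purchased from ATCC that carries wild-type p53. The genes were CDKN1A, GADD45A and BTG2, which restrain the cell cycle or respond to DNA damage, MDM2, the ubiquitin ligase that degrades p53, BBC3 and TP53I3, which act in apoptosis, the death receptors FAS and TNFRSF10B, and SESN1 and RRM2B, which act in metabolism and nucleotide supply. They were chosen by name as known p53 targets, and the rule uses no value of these data, although earlier results of the data were known at the time. A peak was counted for a gene when its midpoint lay in the RefSeq gene body or within 10 kb of it. All 10 genes were found, out of 20037 protein-coding genes, and they held 53 regions of open chromatin out of 102784, where a region is the union of peaks that overlap between samples. Between 39 and 44 peaks per sample belonged to these genes, out of 64511 to 84510.

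The study asked how low replication stress alters chromatin accessibility, and ATAC-seq was done on exponentially growing RKO cells. In ATAC-seq the transposase Tn5 inserts adapters where DNA is accessible. The 3 APH samples received 0.2 µM aphidicolin (APH), an inhibitor of the replicative DNA polymerases, for 16 h, and the 3 DMSO samples received the solvent. No other treatment or allele distinguished the groups, and a single line was used. The paper describes 3 independent experiments. The labels number the samples within each group and do not say which came from the same experiment. Each test measures the spread between these samples and takes them as unpaired.

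p53 is a transcription factor that is stabilised after DNA damage or replication stress. It binds DNA as a tetramer at a response element made of a pair of half-sites, which lie upstream of its target genes, at their starts or within their first introns. MDM2 is itself a target, which closes a negative feedback loop, and the other genes lead to arrest, repair, metabolic adaptation or death.

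The deposited signal of a peak, its mean read coverage, was lower in APH over all peaks, with sample means of 78.3 to 85.2 in DMSO and 69.4 to 73 in APH, while more peaks were listed in 2 of the 3 APH samples than in any DMSO sample. Library depth cannot be read from the lists and is unknown, and a difference in depth and a difference in accessibility cannot be told apart in values that lie lower over most genes. A peak lay within 1 kb of the start in all 6 samples for 55.7% of the 19675 protein-coding genes with a placed start. Of 9 colon epithelium markers CDX2, EPCAM and LGR5 had such a peak in all samples, whereas CDX1, VIL1, KRT8 and CDH1 had none in any. No leukocyte marker (0 of 3) or endothelial marker (0 of 2) had one, and of 3 fibroblast markers COL1A1 and COL1A2 had one in all samples.

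Start sequences are shown for 4 genes, because the p53 half-site was found at alternative starts of FAS and SESN1 and the paired element at alternative starts of MDM2 and FAS, and not at the first listed start, of which CDKN1A is the example. Each is the stretch of 250 bases before a RefSeq start (GRCh38.p14), written 5′ to 3′ on the gene's strand, and capitals mark the match. The MDM2 stretch (listed start 3, chr12:68808767-68809016, plus strand) and the FAS stretch (listed start 2, chr10:88991181-88991430, plus strand) hold a full element. The SESN1 stretch (listed start 3, chr6:109008989-109009238, minus strand) holds an exact half-site. The 10 bases that follow it exceed the 2 mismatches allowed below for a full element. The CDKN1A stretch (listed start 1, chr6:36678464-36678713, plus strand) holds neither a half-site nor a full element.
MDM2: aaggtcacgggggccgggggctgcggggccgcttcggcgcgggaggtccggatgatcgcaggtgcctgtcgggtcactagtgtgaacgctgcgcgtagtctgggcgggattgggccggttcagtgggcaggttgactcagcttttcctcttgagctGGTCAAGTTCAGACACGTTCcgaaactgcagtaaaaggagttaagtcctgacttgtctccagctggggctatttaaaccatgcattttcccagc
FAS: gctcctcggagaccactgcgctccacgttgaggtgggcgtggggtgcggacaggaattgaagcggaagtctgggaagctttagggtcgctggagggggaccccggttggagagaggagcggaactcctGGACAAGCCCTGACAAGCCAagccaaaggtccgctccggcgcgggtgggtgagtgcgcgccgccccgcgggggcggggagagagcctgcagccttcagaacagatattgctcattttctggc
SESN1: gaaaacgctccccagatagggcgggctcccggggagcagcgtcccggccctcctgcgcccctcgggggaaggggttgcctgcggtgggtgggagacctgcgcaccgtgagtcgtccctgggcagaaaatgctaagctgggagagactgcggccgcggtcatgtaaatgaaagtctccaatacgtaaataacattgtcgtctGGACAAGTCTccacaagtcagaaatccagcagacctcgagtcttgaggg
CDKN1A: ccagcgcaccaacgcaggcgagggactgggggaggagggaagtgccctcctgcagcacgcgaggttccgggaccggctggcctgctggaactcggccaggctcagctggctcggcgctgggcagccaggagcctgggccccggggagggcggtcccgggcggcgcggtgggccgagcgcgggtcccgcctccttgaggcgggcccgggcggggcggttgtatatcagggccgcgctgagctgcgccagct

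The p53 half-site has 10 bases with C at base 4 and G at base 7, and a full element was called where 2 half-sites adjoined with these core bases intact and at most 2 mismatches elsewhere. The element reads the same way on both strands. In MDM2 it was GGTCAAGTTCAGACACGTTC at chr12:68808923-68808942, with 1 mismatch in each half-site. In FAS it was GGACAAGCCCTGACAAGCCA at chr10:88991309-88991328, with 0 mismatches in the first half-site and 2 in the second. Over the 35116 listed starts of all genes, 0.285% held a full element and 6.63% an exact half-site. Of the 14 starts listed for 7 of the 10 genes, 3 held a full element, 2 of them overlapping windows of MDM2, and 2 held an exact half-site. No first listed start of these 7 genes held either. A match describes the letters and does not show that p53 bound there.

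These elements lay inside accessible regions. The MDM2 element lay in the region centred 750 bp downstream of the first start, which also holds the internal starts at 845 and 852 bp, and the FAS element lay in the start region centred at 170 bp. All 14 listed starts lay inside a region. The first starts of the 7 genes had a median of 28 CpG and 73.3% G+C in the window from 250 bases before to 50 bases after the start, against 14 and 58.3% over the first starts of 27305 genes. BBC3 (5 CpG, 48% G+C) and TP53I3 (9 CpG, 54.3%) lay below these general medians.

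All 10 genes had a peak within 1 kb of the start in all 6 samples. The start signal, the length-weighted mean over these peaks, was lower on average in APH for 10 of 10 genes, with a median log2 difference of -0.22 on the log2(signal + 1) scale, against -0.27 over the 10963 genes tested, of which 92.9% were lower. Centring each sample on the median of its starts takes the general difference of -0.27 off every gene, so that 8 of the 10 then lay above 0, with a median of 0.05, and TNFRSF10B and SESN1 below. The sign thus depended on the features used for centring. Over the 13 start regions shared by all samples, 12 were negative as deposited (median -0.22). Centred on the median of all regions 10 were negative and 3 positive (median -0.19), from -0.44 in SESN1 to 0.02 in TP53I3 and FAS and 0.07 in the GADD45A region at -895 bp. With quantile normalization of the regions 6 were negative, 6 positive and 1 at 0.00 to 2 decimals (median 0.00), from -0.28 in SESN1 to 0.24 in that GADD45A region. No start of the 10 passed an adjusted p of 0.05 (limma with Benjamini-Hochberg adjustment over all starts), and 2 had an unadjusted p under 0.05, SESN1 and TNFRSF10B. The SESN1 start passed by limma without APH replicate 3 (adjusted p = 0.0294), where 2005 of all 10963 starts passed as lower. It also passed with features of low level left out (adjusted p = 0.045), where 1221 of 8222 starts did. In all alternatives its adjusted p ranged from 0.00607 to 0.756. With all samples and starts 2.43% passed as lower and 0 as higher by limma, with 4391 lower and 53 higher at the unadjusted level. In 4 of the 10 genes (MDM2, TNFRSF10B, SESN1 and RRM2B) every APH sample lay below every DMSO sample, where 42% of all starts did so, and in none did every APH sample lie above, where 0.666% did. A share of 4 in 10 is close to the background. Their differences were spread over the range of all starts, from BBC3, FAS and TP53I3, for which 88.6% to 92.2% of all starts had a more negative difference, to SESN1 (7.94%).

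**Figure D1:**
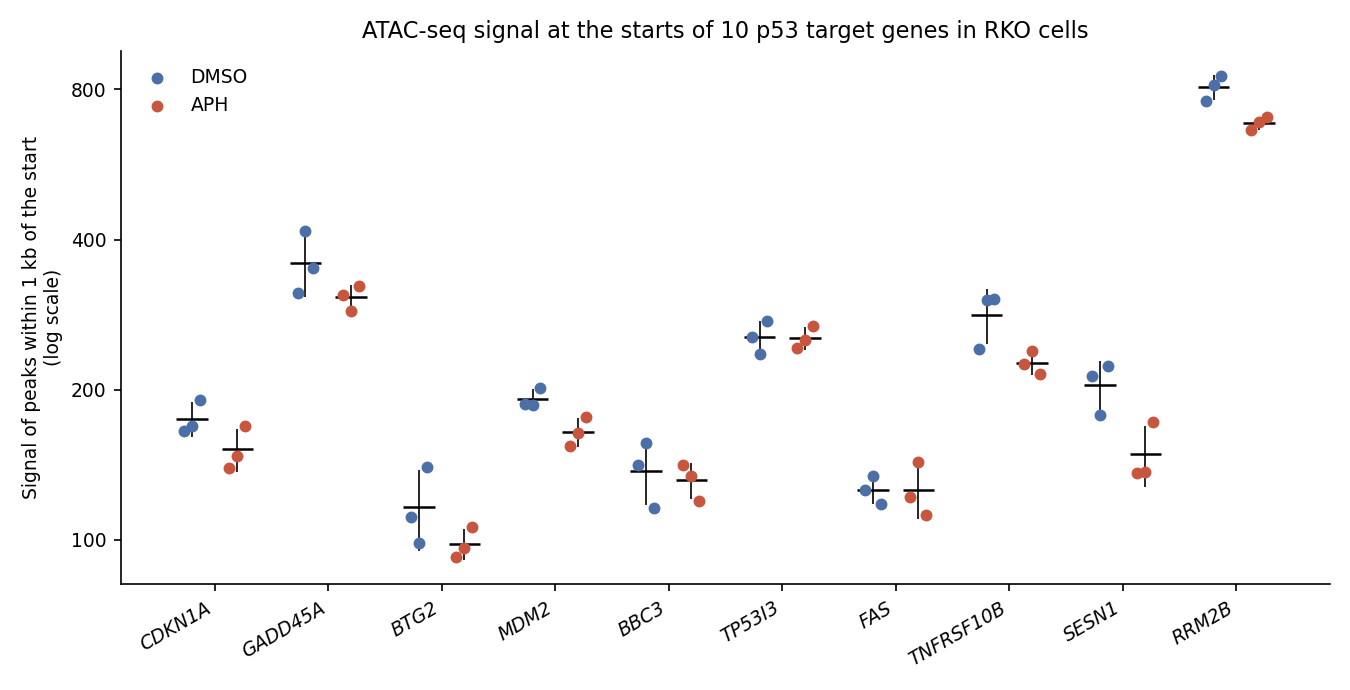
Signal of peaks within 1 kb of the start (vertical log axis) for each of the 10 genes, with 1 point per sample, a bar at the mean of 3 samples and a line of 1 SD to each side. RRM2B lies between 662 and 852 and BTG2 between 92.5 and 140.0, and the APH points lie below all DMSO points in MDM2, TNFRSF10B, SESN1 and RRM2B as deposited, of which MDM2 and RRM2B turn positive when samples are centred on the median of all starts and stay negative when centred on that of all regions.

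Among the arrest genes the signal of CDKN1A, which encodes the cyclin-dependent kinase inhibitor p21, was 165, 169 and 191 at the start in DMSO samples 1 to 3 and 139.6, 147 and 169 in APH samples 1 to 3. The groups met at 169 and the log2 difference was -0.20 ± 0.12 (SE, n = 3 per group, limma adjusted p = 0.203). CDKN1A lies at chr6:36676463-36687332 on the plus strand, and 3 regions with a peak in every sample followed each other from its first listed start, centred at -66, 693 and 1673 bp. In the region at 693 bp the APH values of 126, 124 and 136 all lay below the DMSO values of 145, 156 and 156. The next region upstream lay at -11442 bp with values of 42.7 to 75.4, and no sample had a peak between it and the start region, the stretch in which the well-known upstream p53 elements of this gene lie. The absence of a peak shows only that no peak was listed there.

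GADD45A, a stress sensor in damage signalling (chr1:67685201-67688334, plus strand), had a start signal of 312, 417 and 350.0 in DMSO and 309, 287 and 323 in APH. The groups overlapped (log2 difference -0.22 ± 0.13, limma adjusted p = 0.208), and the level was above that of 95% of all starts. The regions of this gene did not differ alike. The start region at 44 bp had 373, 523 and 505 in DMSO against 381, 396 and 403 in APH, and the body region at 1580 bp had 316, 451 and 344 against 301, 342 and 304. The upstream regions at -895 and -2292 bp had differences of 0.04 and 0.04. DMSO replicate 2 was the highest sample at the start and in the body region, and without it the start difference was -0.11 ± 0.12.

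BTG2, an anti-proliferative cofactor of mRNA decay (chr1:203305519-203309602, plus strand), had the weakest start of the 10, with 111, 98.3 and 140.0 in DMSO and 92.5, 96.2 and 106 in APH. The groups overlapped (log2 difference -0.23 ± 0.15, limma adjusted p = 0.237), and without DMSO replicate 3 the difference was -0.09 ± 0.15. The body region at 1100 bp had the opposite sign, with 64.3, 64 and 48.5 in DMSO and 68.6, 82.4 and 62.8 in APH. Its log2 difference of 0.27 ± 0.20 was within the spread between samples (limma adjusted p = 0.611). The start is shared with the divergent transcript BTG2-DT.

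MDM2 (chr12:68808172-68850686, plus strand) showed a lower signal at its start in APH, with 187, 186 and 202 in DMSO and 154, 164 and 176 in APH. The groups did not overlap, the difference was -0.22 ± 0.11 (limma adjusted p = 0.147), and after centring on the starts it was 0.05. The start signal was made of a region at -249 bp over the constitutive first promoter and a region at 750 bp over the internal promoter that holds the p53 element printed above. At the internal promoter the values were 244, 259.7 and 267 in DMSO and 216, 237 and 220.2 in APH, a difference of -0.19 ± 0.12 with no overlap (limma adjusted p = 0.549). At the first promoter they were 159, 149.5 and 168 against 122, 132 and 155, a difference of -0.22 ± 0.14. The internal promoter, on which p53 acts, had the higher signal of the pair in each sample, and whether the promoters differed in their response was not tested.

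The body of MDM2 held 8 regions, of which 1, at 22228 bp, had a peak in all samples. The region at 19090 bp had a peak in all 3 DMSO samples (48.5, 42.8 and 40.9) and in no APH sample. This presence pattern occurred in 0.184% of all 102784 regions, and the region was singled out after its values were seen. Peaks present in some samples only were otherwise weak, between 28.7 and 51.8. The 4 regions near the 3′ end, where CPM overlaps, had a peak in 1 sample each.

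In the apoptosis group BBC3, which encodes the BH3-only protein PUMA (chr19:47220824-47232860, minus strand), had nearly equal start values of 141, 156 and 116 in DMSO and 141, 134 and 119.7 in APH. The difference was -0.05 ± 0.14 (limma adjusted p = 0.761), and 88.6% of all starts had a more negative one. Its body held 3 regions with a peak in all samples, at 1110, 4110 and 5034 bp, and their differences were -0.03, -0.17 and -0.11 with overlapping groups. The summed body signal was 243, 217 and 267 in DMSO and 181, 204 and 262 in APH, lowest in APH replicate 1 and in APH replicate 3 as high as in DMSO. A flank region at 21840 bp lay on the edge of the window, where the midpoint of 1 sample's peak fell inside.

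TP53I3, an oxidoreductase linked to reactive oxygen (chr2:24077433-24084834, minus strand), had start values of 255, 236 and 275 in DMSO and 242, 251 and 268 in APH, a difference of -0.01 ± 0.11 (limma adjusted p = 0.953). The flank region 8352 bp downstream of the start, beyond the gene's end and at the starts of SF3B6 and FAM228B, had 304, 416 and 371 in DMSO and 272, 289 and 273 in APH. These groups did not overlap and the difference was -0.38 ± 0.14 (unadjusted p = 0.016, limma adjusted p = 0.309). The lower total of the TP53I3 window in APH lay in this region, which belongs to the starts of other genes.

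The death receptor FAS (chr10:88964050-89017059, plus strand) had start values of 126, 134 and 118 in DMSO and 122, 143 and 112 in APH, a difference of -0.01 ± 0.13 (limma adjusted p = 0.954). The start region, which spans the 3 listed starts and the p53 element, was a single broad peak in DMSO samples 1 and 3 and was split into 2 peaks in the other 4 samples. With peaks taken within 500 bp of the start the sign turned (0.23). The region at 3334 bp had a peak in 2 DMSO samples (98.1 and 75.3) and in all 3 APH samples (69.6, 98 and 67), and ACTA2 overlaps the upstream part of the gene.

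TNFRSF10B, which encodes the death receptor DR5 (chr8:23020133-23069031, minus strand), had a start signal of 241, 303 and 304 in DMSO and 225, 239 and 215 in APH. All APH values were lower, the difference was -0.31 ± 0.12 (unadjusted p = 0.0258, limma adjusted p = 0.0895), and after centring it was -0.04 in the fit of starts and -0.28 ± 0.11 in the fit of all regions. Quantile normalization of the regions gave -0.09 ± 0.10, and a start window of 2 kb, which takes in the body region at 1177 bp, -0.18 ± 0.12. The region at 1177 bp, in the body, did not differ in this way, with 190.3, 200.4 and 205 against 200.5, 234 and 164. The flank region at -5721 bp, in TNFRSF10B-AS1, was the only one of the 34 regions shared by all samples in which every APH value lay above every DMSO value, at 44.9, 49.8 and 46 against 43.4, 38.3 and 43.2. This was a weak region and its difference of 0.17 ± 0.20 was smaller than its error (limma adjusted p = 0.783).

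SESN1, a sestrin that restrains mTORC1 and supports antioxidant defence (chr6:108984309-109094846, minus strand), had the most negative difference of the 10. Its start signal was 213, 178 and 223 in DMSO and 136, 137 and 172 in APH, so that APH replicate 3 came near DMSO replicate 2 without reaching it. The difference was -0.47 ± 0.13 (unadjusted p = 0.00462, limma adjusted p = 0.0543), and 7.94% of all starts had a more negative one. The start is shared with CEP57L1, which is transcribed the other way.

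The internal starts of SESN1, at 85294 and 85858 bp, lay in a region with 89.2, 60.7 and 99.6 in DMSO and 54.4, 44.3 and 67 in APH. The difference of -0.57 ± 0.23 was the most negative of the 34 regions (unadjusted p = 0.022, limma adjusted p = 0.327), although the groups overlapped, with APH replicate 3 above DMSO replicate 2. This region contains the printed half-site. The remaining region at 12469 bp was weak, between 21.4 and 34.9, with a difference of 0.02. Both SESN1 regions that hold listed starts thus had negative differences while its intronic region had none of that size.

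RRM2B, the p53-inducible small subunit of ribonucleotide reductase (chr8:102204501-102238961, minus strand), had the strongest start, with 759.6, 815 and 852 in DMSO and 662, 688 and 703 in APH. The groups did not overlap and the difference was -0.24 ± 0.17 (limma adjusted p = 0.268), or 0.03 after centring on the starts and 0.17 after quantile normalization of the starts. The same peaks in the fit of all regions gave -0.21 ± 0.09 after centring and 0.02 ± 0.10 after quantile normalization. Around this gene, within 5 Mb to each side, 259 regions were shared by all samples and had a median difference of 0.09, the highest neighbourhood value of the 10 genes, the others lying between -0.17 and 0.00. Its flank region at -9895 bp had 38.5, 52.8 and 41.1 in DMSO and 57.6, 68.3 and 43.9 in APH, a difference of 0.34 ± 0.23 that was the most positive of the 34 (limma adjusted p = 0.566).

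**Figure D2:**
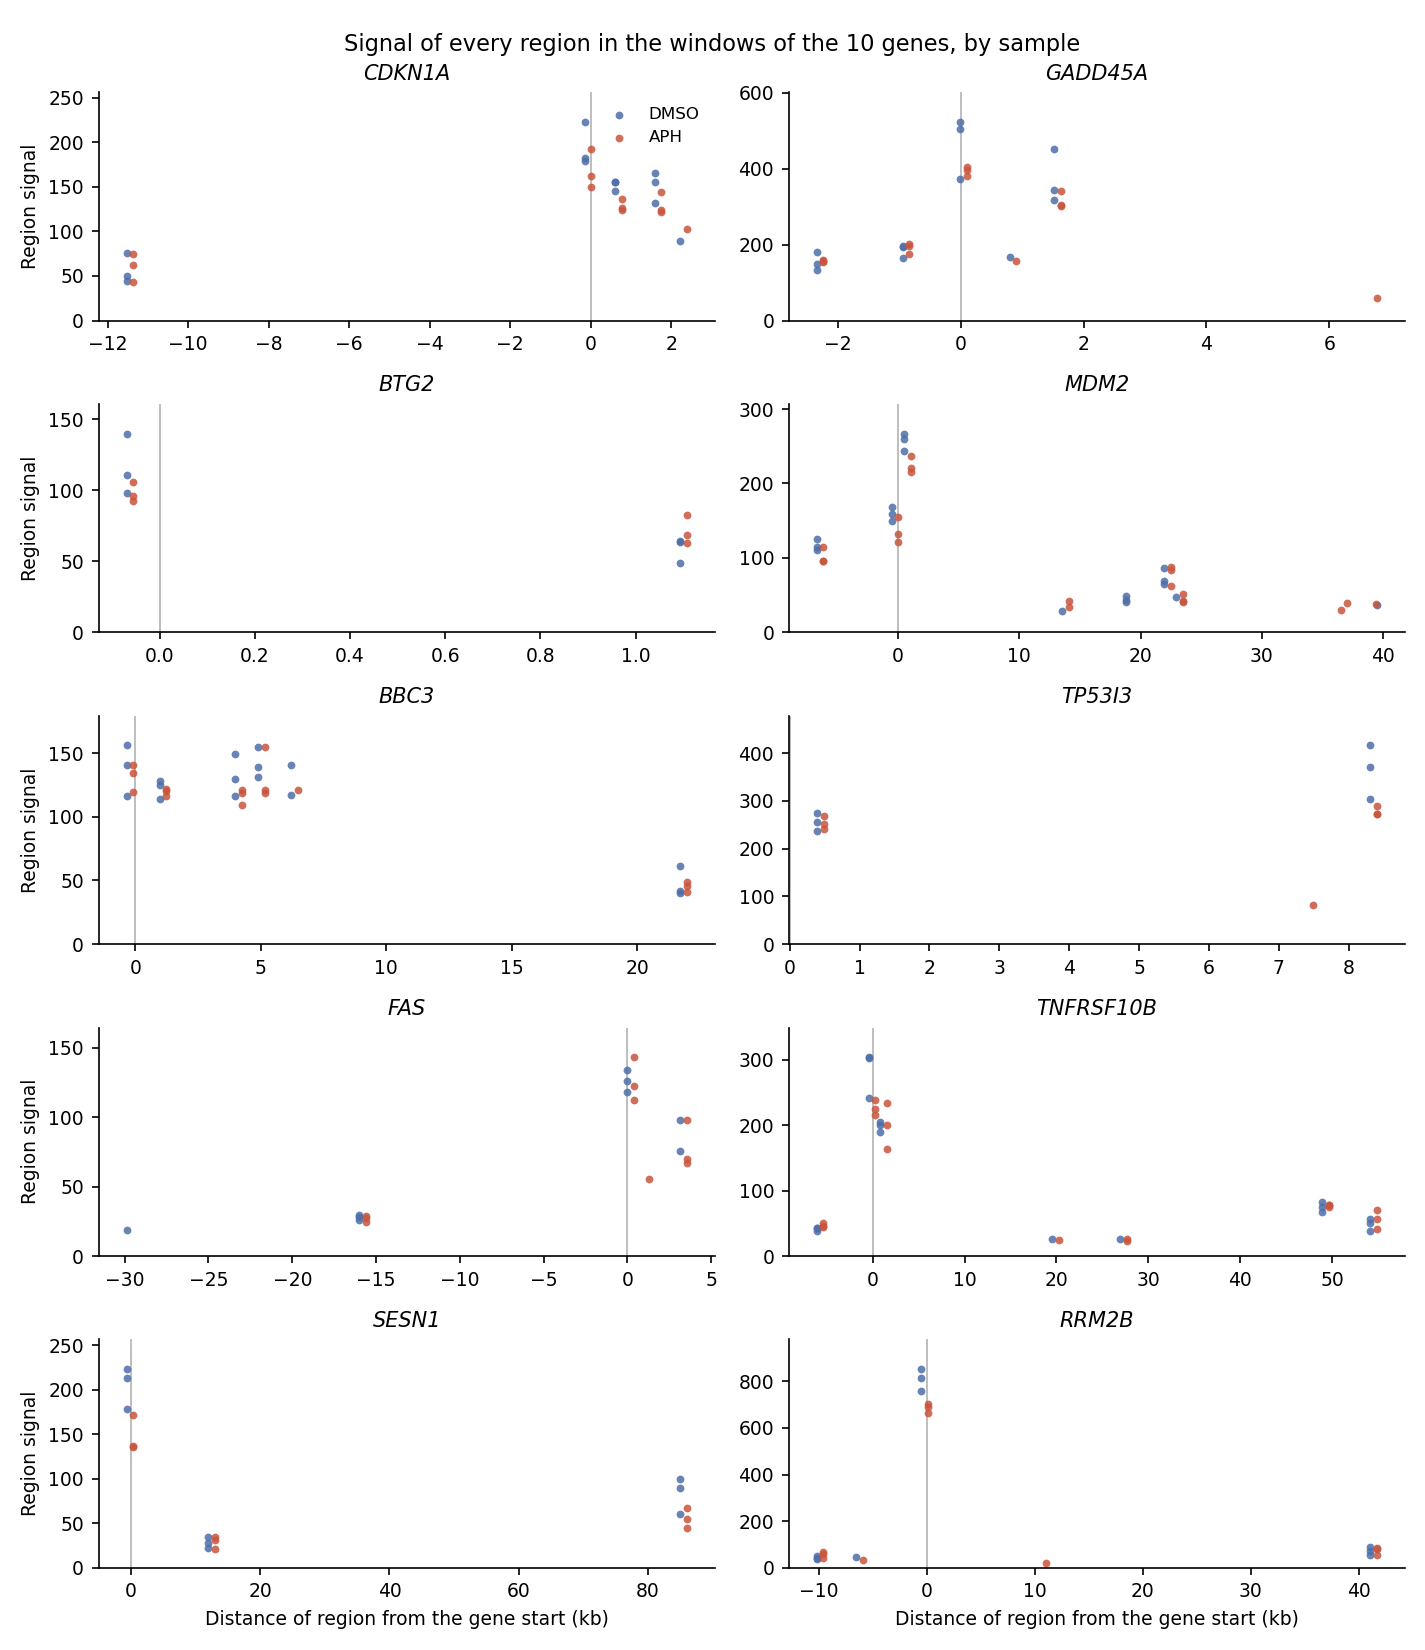
Signal of every region of the 10 genes (vertical axis, linear from 0) against its distance from the gene start in the direction of transcription (horizontal axis, kb), with 1 point per sample that has a peak. DMSO and APH points are shifted sideways from each other for legibility, and the strongest region lies at the start in each gene but BBC3 and TP53I3, at the internal promoter 750 bp from the first start in MDM2.

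The whole window of a gene, body and 10 kb to each side, was compared by its summed signal (signal times length in kb). The sum was lower on average in APH in 10 of 10 genes as deposited, with a median log2 difference of -0.18 against -0.20 over 16850 genes, of which 78.7% were lower. With centred samples 7 of the 10 lay above 0 and the median was 0.03. Every APH sample lay below every DMSO sample in 5 genes (CDKN1A, MDM2, TP53I3, SESN1 and RRM2B), where 39.7% of all windows did so, and above in none, where 2.04% did. The limma test called 1 of the 10 as lower, SESN1, and none as higher, against 21.2% and 0.409% of all windows. With the replicate number fitted as a block it called 7 of the 10 as lower, against 7985 of all 16850 windows.

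In the SESN1 window the sums were 414, 342 and 433 in DMSO and 272, 266 and 328 in APH. The difference was -0.46 ± 0.11 (limma adjusted p = 0.0209), and 4.72% of all windows had a more negative one. SESN1 fell by this test, but the call was lost without DMSO replicate 1 or 3 or APH replicate 1 or 2. The limma adjusted p then lay between 0.0536 and 0.111 and the difference between -0.42 and -0.39. The call was also lost after centring on the windows (-0.25, limma adjusted p = 0.342), quantile normalization (-0.23, 0.419), with peak width as a covariate (-0.27, 0.0515) and in the gene body alone (-0.48, 0.255). With peak width as a covariate the windows of GADD45A (-0.33, limma adjusted p = 0.0143) and RRM2B (-0.24, 0.0312) passed instead. At that setting 4494 of all 16850 windows passed as lower. With flanks of 50 kb BBC3 passed beside SESN1 (-0.37 ± 0.08, limma adjusted p = 0.00627, against -0.19 ± 0.09 and 0.139 with 10 kb), where 6454 of 18786 windows passed as lower. Over all the alternatives tried the adjusted p of SESN1 lay between 0.000111 and 0.419. For the other 9 genes the window differences ran from -0.24 ± 0.09 in CDKN1A (limma adjusted p = 0.0594) and -0.21 ± 0.07 in RRM2B (limma adjusted p = 0.0605) to -0.07 ± 0.08 in TNFRSF10B (limma adjusted p = 0.532).

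**Figure D3:**
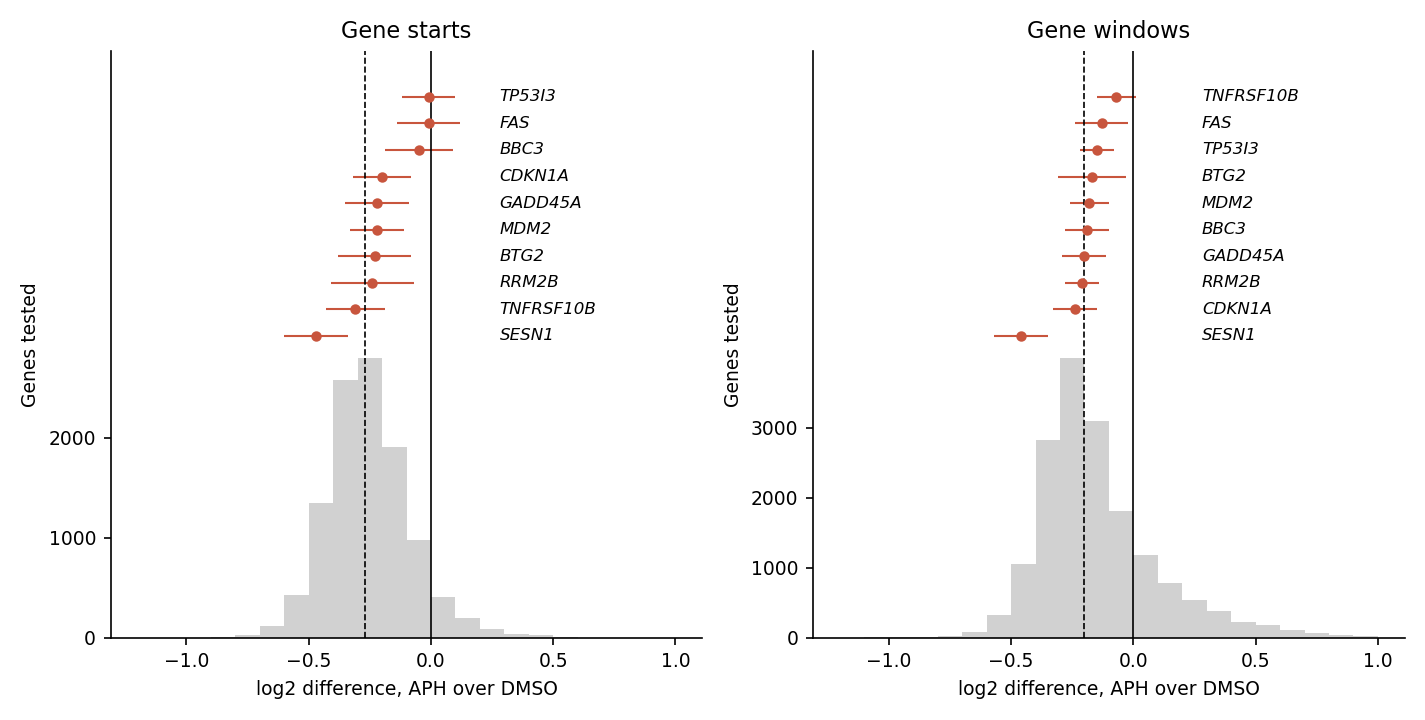
Grey bars count genes by their log2 difference (APH over DMSO, horizontal axis) for starts (left) and windows (right), the dashed line marks the median of all genes, and red points with lines of 1 SE are the 10 genes. All 10 lie at or left of 0 as deposited and most lie right of the dashed line at the starts, the median to which centring moves 0, with SESN1 farthest to the left in both panels.

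Peak numbers hardly differed. The 10 genes held 39, 41 and 41 peaks in DMSO and 44, 41 and 43 in APH, an average of 2.33 more in APH, and the groups met at 41. Of these, peaks within 1 kb of the start numbered 13, 14 and 14 against 14, 15 and 14. The body held 15, 15 and 17 against 18, 16 and 19, and the flanks 11, 12 and 10 against 12, 10 and 10.

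By gene the peak number was equal on average in CDKN1A, BTG2, TNFRSF10B and SESN1. FAS had 3, 4 and 3 peaks in DMSO and 4, 4 and 5 in APH (two-sided exact permutation test, p = 0.3), and MDM2 had 6, 6 and 6 against 7, 6 and 7 (exact permutation p = 0.4). The smallest p that 3 against 3 samples allow is 0.1, so no gene could pass 0.05 by this test. In none of the 10 genes did every APH sample have more peaks than every DMSO sample or fewer, where 3.57% and 0.414% of 18102 genes did. Within FAS the average difference was 0.667 peaks at the start, where the broad peak was split, 0.667 in the body and -0.333 in the flank.

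Of the 53 regions 34 had a peak in all 6 samples (64.2%, against 48.8% of all regions). Another 7 had peaks in APH samples only and 3 in DMSO samples only (13.2% and 5.66%, against 18.5% and 7.03% of all regions). None of the 7 was found in all 3 APH samples, a pattern that 1.11% of all regions had. Of the 34, the 13 at starts had a median difference of -0.22, the 11 in bodies -0.04 and the 10 in flanks 0.04, and these differences between positions were not tested. Values were negative in 12 of the 13, 8 of the 11 and 3 of the 10. Over the 34 the median was -0.06, as over all 50150 regions (-0.06). Every APH value lay below every DMSO value in 6 of the 34 and above in 1, where 14.4% and 4.21% of these 50150 regions did so. No region passed an adjusted p of 0.05 by limma in this fit, among the 34 or among all. Of the 34, 4 had an unadjusted p under 0.05. These were the SESN1 start, the SESN1 body region with its internal starts, the TNFRSF10B start and the region at SF3B6. Over all regions 1235 were higher and 5062 lower at that unadjusted level.

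**Figure D4:**
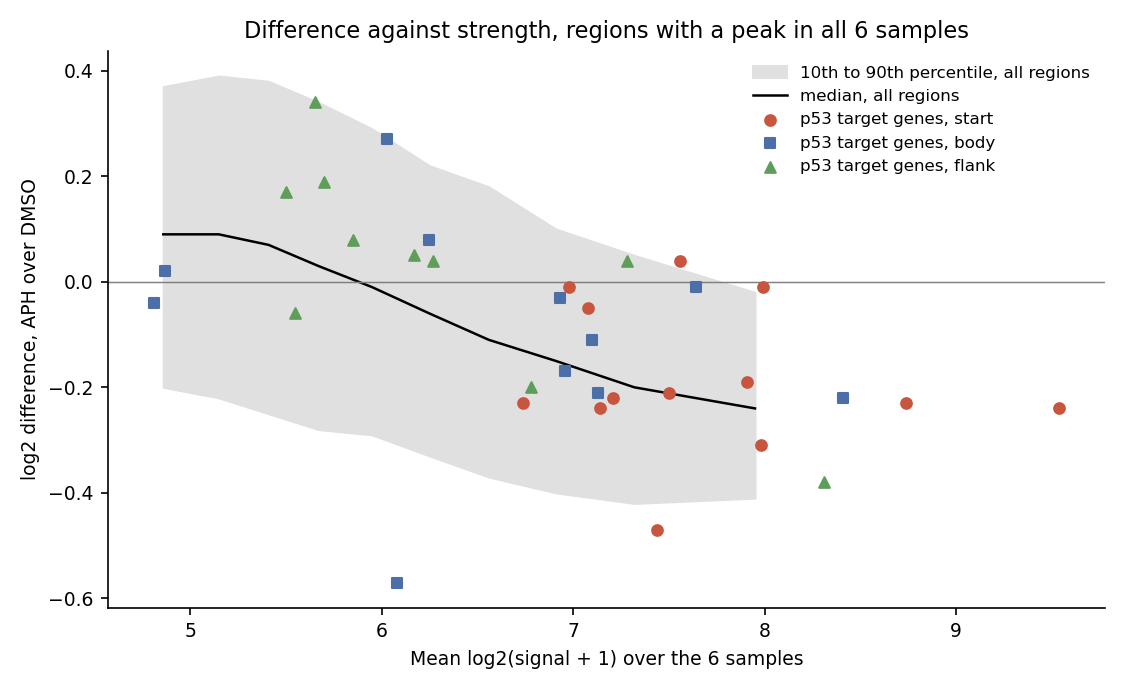
Log2 difference (APH over DMSO, vertical axis) against mean log2(signal + 1) over the 6 samples (horizontal axis). Points are the 34 regions of the 10 genes shared by all samples, by position. The median (line) and the 10th to 90th percentile (grey) are of all 50150 regions with a peak in all 6 samples, in 10 strength classes. The line runs from 0.09 in the weakest class to -0.24 in the strongest, most of the regions of the 10 genes lie within the grey band, and the internal SESN1 start at -0.57 lies far below it.

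The difference varied with the strength of a region over all chromatin. In the weakest of 10 equal classes of all regions the median difference was 0.09 and in the strongest -0.24. The start regions lay in the upper classes. The RRM2B start (-0.24), the GADD45A start (-0.23) and the MDM2 internal promoter (-0.19) stood beside a median of -0.24 for regions of their strength, and the CDKN1A start (-0.21) beside -0.20. The TP53I3 start (-0.01) stood above the median of its class (-0.24) and the SESN1 start (-0.47) below its own (-0.20). The internal SESN1 start (-0.57) belonged to a class with a median of -0.01. Of the 34 regions 19 lay above the median of their class, 14 below and 1 (the RRM2B start) equal to it to 2 decimals, with a median distance of 0.03. Outside the 10th to 90th percentile of their class lay the TP53I3 start and the TNFRSF10B body region at 1177 bp (-0.01, class median -0.24) on the upper side. The SESN1 start and the internal SESN1 start, counted as a body region, lay outside on the lower side.

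A further 34 genes of the p53 pathway, regulators and other targets, were examined as a list. The start was tested in 30, with a median difference of -0.27, as over all genes, 28 below 0, 1 above 0, 1 (SFN) at -0.00 to 2 decimals and none past the adjusted threshold by limma. EDA2R, GDF15, ATF3 and TRIM22 were not tested at the start. Windows were tested in 33, with a median of -0.23, and 11 of them passed as lower and none as higher, against 21.2% and 0.409% of all windows. Among those of smallest p were SESN2 (-0.49 ± 0.11, limma adjusted p = 0.018), BAX (-0.31 ± 0.07, 0.0209), CCNG1 (-0.28 ± 0.07, 0.0248) and SFN (-0.26 ± 0.07, 0.0273), and none of these calls remained after centring.

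By role, 4 of 6 genes of the regulatory group, 2 of 5 cell cycle genes, 2 of 11 tested genes of cell death and survival, 0 of 4 of DNA repair, 3 of 5 of metabolism and stress and 0 of 2 others passed as lower in their windows, beside 21.2% of all windows. With centred samples 0 windows of any gene passed as lower or higher by limma. At an unadjusted p under 0.05, 960 were then lower and 1499 higher. SESN2, another sestrin, had window sums of 199, 188 and 204 in DMSO and 129.7, 150.3 and 141 in APH, with no overlap. It had the most negative window difference of the list, as SESN1 had among the 10 genes.

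SPATA18, a p53 target in mitochondrial quality control, had the single start with a higher signal in APH, at 50.8, 59.5 and 41.5 against 32.7, 36.8 and 36.6 in DMSO. The groups did not overlap and the difference was 0.49 ± 0.18 (limma adjusted p = 0.0772). With peaks of value 30 or more it was 0.26 ± 0.16 (limma adjusted p = 0.22). It was 0.76 ± 0.18 after centring on the starts (limma adjusted p = 0.459) and 0.58 ± 0.19 after quantile normalization (0.5). Without APH replicate 3 it passed (0.62 ± 0.18, limma adjusted p = 0.0423), as it did with the replicate number fitted as a block (0.49 ± 0.15, 0.0201). At these settings 19 and 62 of all 10963 starts passed as higher. The adjusted p ranged from 0.0201 to 0.5 in all alternatives. SPATA18 had a weak start, and its window difference of 0.17 ± 0.21 did not pass the test (limma adjusted p = 0.566). At the other end of the starts SESN2 (-0.41 ± 0.10) and PLK3 (-0.41 ± 0.11) had the smallest p among those with lower values, with limma adjusted p of 0.0522 and 0.0531.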

How the data were processed

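ATAC-seq peak lists of 6 RKO samples (3 DMSO, 3 APH) were used. The authors deposited peak positions and a signal, which averages over each peak the coverage by alignments extended to 200 bp, in bins of 32 nt. Alignment was with BWA (0.7.12 in the submitters' processing notes), and peaks were called per sample with MACS2 2.1.0, after removal of duplicates and with blacklisted peaks left out. The notes name hg38. The signal is not stated to be scaled to depth, which is unknown, and no shift of reads to the Tn5 cut is named.

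Peaks overlapping by 1 bp or more were merged into regions. The start was the first start of the RefSeq promoter table (GRCh38.p14), or the 5′ gene end for GADD45A, RRM2B and TNFRSF10B, which lack an entry there, with strand from GENCODE. Of 10 genes 7 matched that table. Starts needed a peak in all 6 samples within 1 kb, and windows covered the gene body and 10 kb to each side. The genes, lists and tests were chosen with earlier results of these data known.

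Regions, windows and starts were compared with limma 3.58.1 (R 4.3.3) on log2(value + 1) with an intensity trend and Benjamini-Hochberg adjustment at 0.05 over all features, after a test on simulated data. Peak numbers were tested by exact two-sided permutation. Pathway genes named were up to 5 past the threshold in each direction and the 2 of smallest p, of which 1 is not reported here. Other steps ran in Python 3.11.15 (pandas 2.3.3, numpy 2.4.6, scipy 1.17.1). Same-numbered samples were not treated as pairs, and the alternatives are given in the closing section.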

Additional observations from a re-analysis of the deposited data

How the results depend on the processing

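Calls over all genes depended on scaling. Without centring 69 windows were higher and 3578 lower and 266 starts were lower. With centring these were 0, 0 and 0, and 1 region was lower, and with quantile normalization 1, 0 and 0. The all-gene medians of -0.20 (windows) and -0.27 (starts) then moved to 0.01 and 0.00, or to -0.01 and -0.01. Centred start differences were 0.07 in CDKN1A, 0.05 in GADD45A and MDM2, 0.04 in BTG2, 0.22 in BBC3, 0.26 in TP53I3 and FAS and 0.03 in RRM2B, and with quantiles 0.08, 0.07, 0.06, 0.02, 0.22, 0.27, 0.25 and 0.17. Centred window differences were 0.01 in GADD45A, 0.04 in BTG2, 0.03 in MDM2, 0.02 in BBC3, 0.06 in TP53I3, 0.08 in FAS and 0.14 in TNFRSF10B, and with quantiles 0.04 in GADD45A, 0.05 in MDM2, 0.04 in BBC3, 0.09 in TP53I3, 0.08 in FAS, 0.16 in TNFRSF10B and 0.02 in RRM2B and in its start region. SESN1 stayed negative under every alternative run, in its window between -0.56 and -0.23 and at its start between -0.57 and -0.19. The CDKN1A window (-0.03 centred, -0.02 with quantiles) and the TNFRSF10B start (-0.04 and -0.03) also stayed negative under every alternative.

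Fitting the replicate block gave 583 higher and 7985 lower windows, 62 starts higher and 5778 lower, and 1021 regions higher and 5583 lower. It called 7 windows and 3 starts (SESN1, TNFRSF10B and MDM2) of the 10 genes as lower. Those general counts were 7985 of 16850 windows and 5778 of 10963 starts. Same-numbered samples did not all deviate together (correlations -0.00665, 0.477 and 0.515), and APH replicate 1 correlated best with DMSO replicate 2 (0.258), so the numbers were not taken as pairs. With median peak width as a covariate 41 of 16850 windows were higher and 4494 lower, and 11 of 10963 starts higher and 3521 lower. Of the regions 49 were higher and 5330 lower. The starts of GADD45A (-0.36), TNFRSF10B (-0.44) and RRM2B (-0.26) were called. Those of SESN1 and BTG2 were -0.28 and -0.09, the TP53I3 start was 0.07 and the SPATA18 window -0.04. Without the features of lowest level 27 windows were higher and 4389 lower, 1 start higher and 1221 lower. Gene bodies alone gave 4 windows higher and 14 lower, with 0.84 in BTG2, 0.25 in BBC3, 0.01 in CCNG1 and, in the other direction, -0.78 in GADD45A. With flanks of 50 kb 103 of 18786 windows were higher and 6454 lower. BBC3 was then -0.37 and called, SPATA18 was -0.15 and the 10 genes had 5.33 more peaks in APH. All RefSeq genes gave 123 windows higher and 4089 lower. A start window of 500 bp gave 0 starts lower and 0.23 in FAS, and one of 2 kb 7 higher and 729 lower, with -0.18 in TNFRSF10B. Start calls changed little (261 lower) with the outer gene end as start, an alternative added after the data were seen.

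Leaving out each replicate in turn gave 0 to 272 windows higher and 0 to 4266 lower, 0 to 19 starts higher and 0 to 2005 lower, and 0 to 3 regions lower. Without DMSO replicate 3 or APH replicate 1 no window was called, and the 2005 lower starts were found without APH replicate 3. The start difference then ran from -0.17 to 0.04 in BBC3, from -0.06 to 0.05 in TP53I3, from -0.11 to 0.07 in FAS, from -0.32 to -0.11 in GADD45A and from -0.34 to -0.09 in BTG2, and that of the FAS region at -15826 bp from -0.10 to 0.03. The peak difference of the 10 genes ran from 1.67 to 3.17. The cause of these changes was not tested. Over the single values of the 10 genes, 415 log2 differences under an alternative kept direction and side of the threshold, 43 turned, 28 gained and 8 lost a call. Of the 43, 31 turned under centring or quantile normalization, which shift most genes alike, and 12 under other alternatives. Of their peak number differences 83 moved by no more than the spread between samples, some with a change of sign, and 7 by more.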
